A study of Saccharomyces cerevisiae with 24 samples.

Results

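GSC2, FKS1 and RHO1 encode the 1,3-beta-glucan synthase of budding yeast, with FKS1 and GSC2 (also called FKS2) coding for alternative catalytic subunits and RHO1 for the GTPase that activates both. These 3 genes were chosen by name from the 5211 genes of the deposited count table and followed across all 24 libraries. The choice rested on measured values in part: GSC2 had one of the largest footprint differences between the genotypes without stress. The difference of each of the 3 genes between unstressed zuo1Δ and wild-type cells, and every footprint change of GSC2 against unstressed cells, is therefore given as a description with no test.

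The enzyme sits in the plasma membrane and makes the glucan chains that form the main fibre of the yeast cell wall. Fks1 serves growing cells and is the more abundant catalytic subunit in rich glucose medium. Gsc2 is known as the inducible one, raised by heat, poor carbon sources, calcium and damage to the wall. Routes to it include calcineurin with the transcription factor Crz1, and the Pkc1 kinase cascade. Rho1 binds the synthase in its GTP form and also switches on Pkc1, so it links sensors at the cell surface to both enzyme activity and transcription.

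Ribosome footprints, the mRNA fragments that ribosomes shield from nuclease, and poly(A) mRNA were sequenced from zuo1Δ cells and from their wild type, both of the BY4741 strain background. Zuo1 is a J-domain chaperone that works at the ribosomal exit tunnel. Each genotype was sampled after 0.25 mM hydrogen peroxide (H2O2) for 30 min at 30 °C, after a heat shift to 37 °C for 45 min, and unstressed at 30 °C, with 2 biological replicates in each of 12 groups. All cells grew in synthetic complete medium with 2% glucose to an optical density of 0.6 at 600 nm. The heat shift was made by adding warm fresh medium in an amount equal to the culture, so heated cells were also diluted into new medium. The labels do not say how the deletion was made or how many clones were used.

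Totals ran from 1686930 to 15788345 counts in footprint libraries and from 7810893 to 122213415 in mRNA libraries. ZUO1 was at 0 counts in all 12 zuo1Δ libraries and above 0 in every wild-type one. In 3 stressed zuo1Δ libraries, 65 marker genes of the labelled stress had a median level at or below that of some unstressed library from the same assay. These were the libraries labelled zuo1Δ H2O2 replicate 1 in footprints, zuo1Δ H2O2 replicate 2 in mRNA and zuo1Δ heat replicate 1 in mRNA. The H2O2 mRNA library among them had its heat markers at 0.683 (log2, relative to the unstressed mean; unstressed libraries up to 0.329), and the heat mRNA library had its H2O2 markers at 1.097 (unstressed up to 0.458). Each thus had markers of the other stress above the unstressed libraries, so their labels may be exchanged, which was not tested. Such a rise was not particular to them, as heated wild-type mRNA libraries had H2O2 markers at 0.787 and 0.526. Wild-type H2O2 mRNA libraries had heat markers at 0.166 and 0.042. Each marker set was chosen from this same data, as the genes with the largest wild-type footprint rises, less those shared by both stresses. Wild-type footprint libraries therefore pass this check by construction. A weak response of zuo1Δ cells would fail this check as a wrong label would, and neither was tested. The 3 libraries were kept under their labels, so zuo1Δ mRNA values named after H2O2 or heat hold for the labels only. These are called the doubted libraries, and the tests of the 3 genes that rest on them are mostly followed by values without them.

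GSC2 (YGR032W) lies on chromosome VII at 548264 to 553951 and FKS1 (YLR342W) on chromosome XII at 809997 to 815627, in RefSeq coordinates of build R64. Their coding lengths of 5688 and 5631 bases are nearly equal. RHO1 (YPR165W) is a short gene of 630 coding bases on chromosome XVI at 875368 to 875997. No other annotated gene overlaps any of the 3. FKS1 and GSC2 are close paralogs, and how reads that fit both were counted is not given in the sources used here. Some low GSC2 values could thus hold reads of the far more abundant FKS1, which was not tested.

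Footprints on GSC2 stood near or above the level of heated wild-type cells in zuo1Δ cells of every condition, and far above that of wild-type cells without heat. As bulk measurements, these do not tell fewer cells that express a gene apart from less RNA per cell. Levels are in CPM, read counts scaled by the library total and its TMM factor. After H2O2, GSC2 footprints were at 832 and 637 CPM in the zuo1Δ replicates, against 82.7 and 63.0 CPM in wild type. After heat they were at 1232 and 1117 CPM in zuo1Δ, against 762 and 847 CPM in wild type. Without stress they were at 758 and 741 CPM in zuo1Δ, against 63.5 and 73.7 CPM in wild type. The genotypes did not overlap in any condition, and the lowest zuo1Δ library stood above the highest wild-type library outside heat.

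The GSC2 groups ordered from the highest mean down as heated zuo1Δ (1174 ± 80.8 CPM, SD, n = 2), heated wild type (804 ± 60.5), unstressed zuo1Δ (750 ± 12.3), zuo1Δ after H2O2 (734 ± 138), wild type after H2O2 (72.9 ± 14.0) and unstressed wild type (68.6 ± 7.21). Replicates of unstressed and H2O2-treated zuo1Δ overlapped, and so did those of wild type in the same conditions. Across the 12 footprint libraries the highest GSC2 level was 19.6 times the lowest, against 1.62 times for FKS1 and 1.74 times for RHO1.

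**Figure D1:**
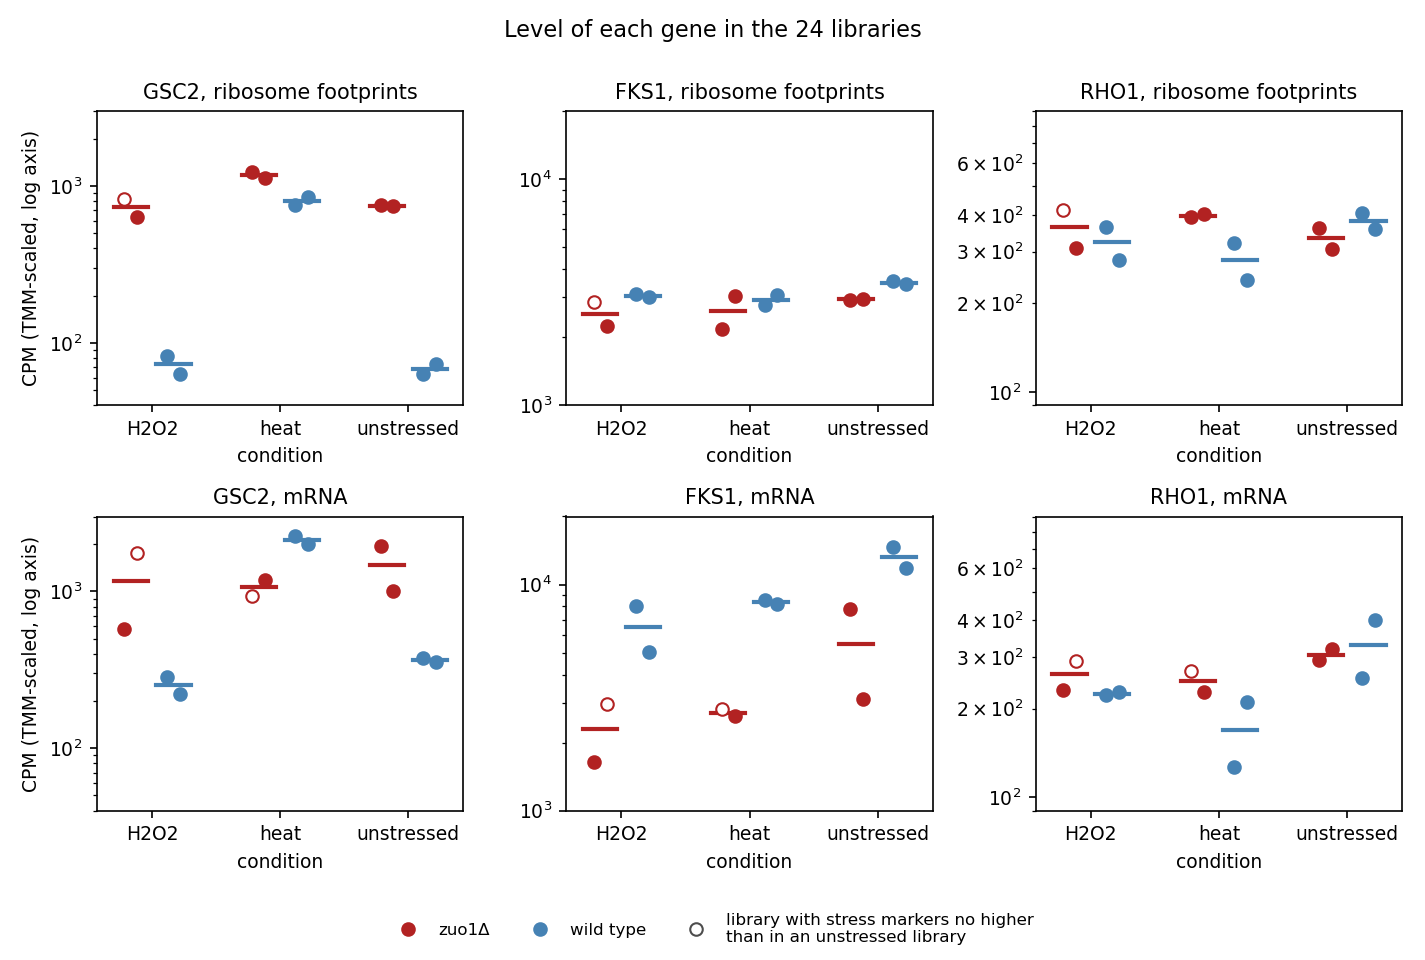
Level of GSC2, FKS1 and RHO1 in each of the 24 libraries, in CPM on a log axis, for ribosome footprints (top) and mRNA (bottom). Each point is a library, short lines are means of 2 replicates, and open points are the 3 doubted libraries. GSC2 footprints of wild type reach the zuo1Δ range only after heat (762 and 847 CPM), while FKS1 and RHO1 footprints stay within narrow ranges in all groups.

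After H2O2 the zuo1Δ difference was tested, in libraries other than the unstressed ones, though GSC2 was chosen with earlier results of all libraries known. It was 3.35 ± 0.19 on the log2 scale (fold change ± SE), a 10.2-fold rise in zuo1Δ (edgeR quasi-likelihood test, adjusted p = 1.5e-06). This was the largest rise among 5064 genes. Given that choice, neither the p-value nor the rank lends independent support. In this comparison 19% of all genes passed at an adjusted p under 0.05. Without the doubted library the rise was 3.18 ± 0.17 (edgeR, adjusted p = 2.85e-06). In description, the unstressed difference was 3.45 ± 0.19, or 10.9-fold, in a comparison in which 4.82% of genes passed.

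After heat, GSC2 footprints were 1.46-fold as high in zuo1Δ as in wild type (0.55 ± 0.17) and did not pass the test (edgeR, adjusted p = 0.0731). Of all genes 6.48% passed here. The value passed with library size alone as the scaling (0.69, edgeR, adjusted p = 0.0305) and in DESeq2 (0.54, adjusted p = 0.0436). It also passed without the doubted footprint library (0.53), which belongs to neither of the heat groups compared. Both zuo1Δ replicates were above both wild-type replicates.

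The response of GSC2 to heat was large in wild type and small in zuo1Δ. In description, heat against the unstressed state gave 0.65 ± 0.17 in zuo1Δ and 3.55 ± 0.19 (11.7-fold) in wild type, which differ by -2.90 ± 0.25. H2O2 against the unstressed state gave -0.03 ± 0.17 in zuo1Δ and 0.07 ± 0.19 in wild type, differing by -0.10 ± 0.25. Without the doubted library the zuo1Δ value was -0.20 and the difference -0.24, and the remaining zuo1Δ library (637 CPM) lay below both unstressed ones.

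Heat was also set against H2O2, a comparison that uses no unstressed library and was added after the values were seen, so its p-values lend no independent support. GSC2 footprints were 1.60-fold higher after heat than after H2O2 in zuo1Δ (0.68 ± 0.17; edgeR, adjusted p = 0.0447; 0.85 without the doubted library, adjusted p = 0.0196) and 11.1-fold higher in wild type (3.48 ± 0.19; edgeR, adjusted p = 1.53e-06). The difference between these responses was -2.80 ± 0.25 (edgeR interaction, adjusted p = 0.000385), and -2.64 (adjusted p = 0.000391) without the doubted library. Of all genes, 4.19% passed in zuo1Δ, 14.6% in wild type and 0.395% in the interaction. The zuo1Δ response did not pass when only the compared groups were fitted (0.67, adjusted p = 0.258), nor without zuo1Δ H2O2 replicate 2 (0.50, adjusted p = 0.137), heat replicate 1 (0.61, adjusted p = 0.208) or heat replicate 2 (0.75, adjusted p = 0.0788).

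FKS1, the catalytic subunit of growing cells, had the more footprints of the pair in every library. After H2O2 it was at 2852 and 2243 CPM in zuo1Δ, against 3099 and 3013 CPM in wild type. Heated cells had 2178 and 3044 CPM in zuo1Δ, against 2775 and 3062 CPM in wild type. In unstressed cells FKS1 was at 2920 and 2965 CPM in zuo1Δ, against 3530 and 3430 CPM in wild type. The zuo1Δ libraries lay below the wild-type ones after H2O2 and without stress, and the groups overlapped after heat. By library size alone they overlapped in every condition, and the unstressed difference was -0.002.

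No FKS1 footprint difference passed a test. The zuo1Δ difference was -0.26 ± 0.16 after H2O2 (edgeR, adjusted p = 0.278; -0.42 without the doubted library, adjusted p = 0.142) and -0.16 ± 0.16 after heat (edgeR, adjusted p = 0.594). In description it was -0.24 ± 0.16 without stress. After H2O2 against unstressed cells the change was -0.21 ± 0.16 in zuo1Δ (edgeR, adjusted p = 0.73; -0.36 without the doubted library, adjusted p = 0.313) and -0.19 ± 0.16 in wild type (adjusted p = 0.467). After heat it was -0.17 ± 0.16 in zuo1Δ (edgeR, adjusted p = 0.519) and -0.25 ± 0.16 in wild type (adjusted p = 0.357). Of all genes, 0% passed after H2O2 in zuo1Δ, where 444 were under 0.05 unadjusted, 27 passed in DESeq2 and 184 passed in edgeR without the doubted library, and 18.1% passed in wild type. After heat 11.9% passed in zuo1Δ and 9.81% in wild type. Heat against H2O2 gave FKS1 0.04 ± 0.16 in zuo1Δ (edgeR, adjusted p = 0.933; 0.18 without the doubted library, adjusted p = 0.669) and -0.07 ± 0.16 in wild type (adjusted p = 0.823).

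RHO1, the activating GTPase, had footprints per coding length near or below those of the catalytic subunits together. After H2O2 it was at 417 and 309 CPM in zuo1Δ, against 364 and 280 CPM in wild type. Heated cells had 392 and 401 CPM in zuo1Δ, against 321 and 240 CPM in wild type. Unstressed cells had 361 and 305 CPM in zuo1Δ, against 404 and 358 CPM in wild type. Only after heat did the genotypes not overlap with zuo1Δ above wild type, and without stress the groups overlapped by a narrow margin.

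In the test after heat the RHO1 difference of 0.50 ± 0.20 did not pass (edgeR, adjusted p = 0.149), though it passed with a block for the replicate number. After H2O2 it was 0.18 ± 0.20 (edgeR, adjusted p = 0.562), and -0.03 (adjusted p = 0.953) without the doubted library. In description it was -0.20 ± 0.20 without stress. Heat against unstressed cells gave 0.25 ± 0.20 in zuo1Δ (edgeR, adjusted p = 0.429) and -0.45 ± 0.20 in wild type (adjusted p = 0.181). The difference between these responses, 0.70 ± 0.28, did not pass (edgeR interaction, adjusted p = 0.265), nor did that of FKS1 (0.08 ± 0.23, adjusted p = 0.907). For H2O2 the differences between genotypes were 0.37 ± 0.28 for RHO1 (edgeR interaction, adjusted p = 0.488) and -0.02 ± 0.23 for FKS1 (adjusted p = 0.974), and without the doubted library 0.21 (adjusted p = 0.775) and -0.14 (adjusted p = 0.816). Heat against H2O2 gave RHO1 0.13 ± 0.20 in zuo1Δ (edgeR, adjusted p = 0.787; 0.32 without the doubted library, adjusted p = 0.521) and -0.20 ± 0.20 in wild type (adjusted p = 0.522). Among all genes, 1.36% passed in the H2O2 interaction (20 genes without the doubted library, against 69) and 1.03% in the heat interaction.

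**Figure D2:**
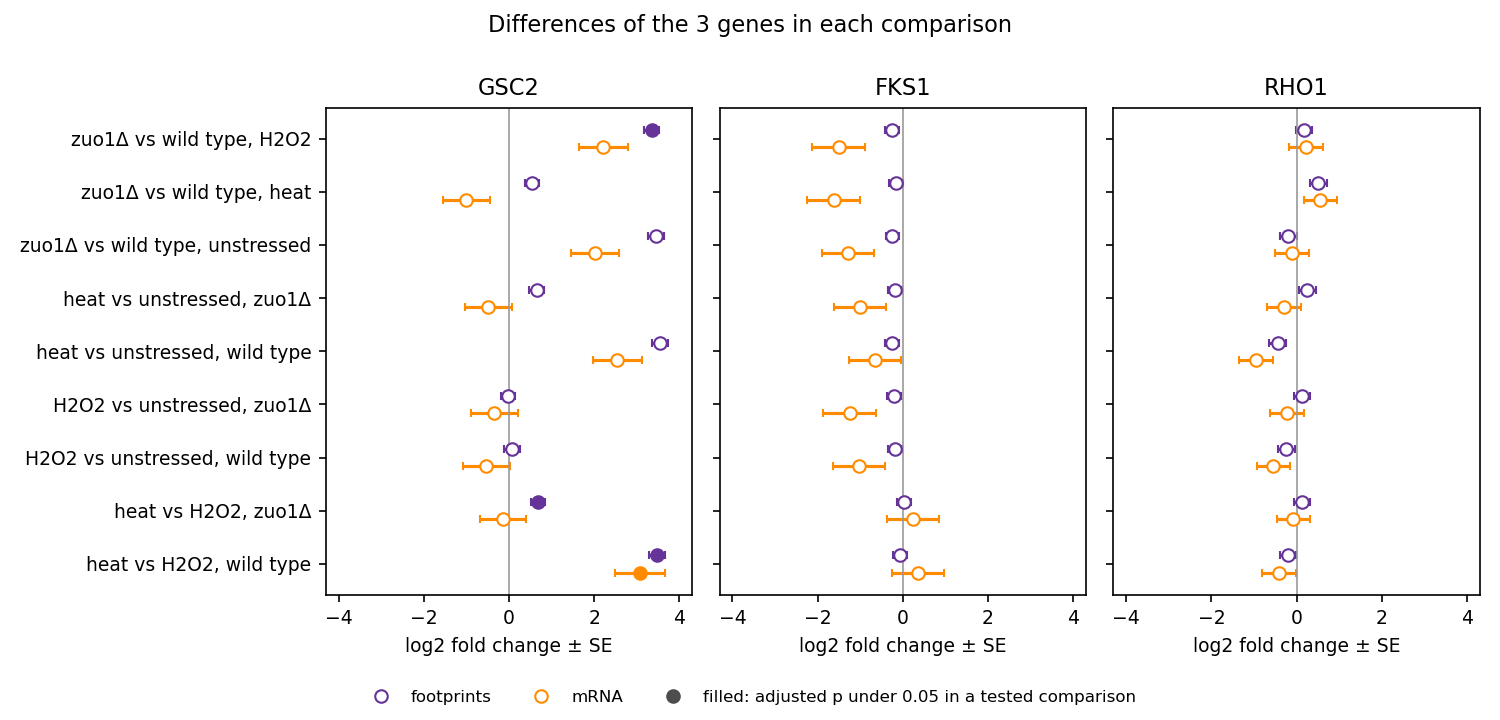
Log2 fold change ± SE of GSC2, FKS1 and RHO1 in footprints and mRNA for 9 comparisons, from the fit of all 12 libraries of an assay. Filled points passed at an adjusted p under 0.05 in a comparison that was tested. In footprints GSC2 lies at 3.35 (zuo1Δ against wild type after H2O2) and 3.48 (heat against H2O2 in wild type), while FKS1 and RHO1 footprints lie between -0.45 and 0.50.

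The balance between the catalytic subunits can be read within a library, with no scaling between libraries. GSC2 reads were taken as a share of GSC2 and FKS1 reads per coding length, with 95% Clopper-Pearson intervals that cover counting error only. After H2O2 the footprint share was 22.4% (22.1 to 22.7) and 22.0% (21.3 to 22.6) in zuo1Δ, against 2.58% (2.26 to 2.93) and 2.03% (1.89 to 2.17) in wild type. Heat gave 35.9% (35.0 to 36.8) and 26.7% (25.7 to 27.6) in zuo1Δ, against 21.4% (20.5 to 22.3) and 21.5% (21.0 to 22.0) in wild type. Unstressed cells gave 20.5% (20.1 to 20.8) and 19.8% (19.3 to 20.4) in zuo1Δ, against 1.75% (1.41 to 2.15) and 2.08% (1.72 to 2.50) in wild type. About 1 in 5 catalytic footprints or more was thus on GSC2 in each zuo1Δ library and in heated wild type.

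In mRNA too, the GSC2 share was higher in zuo1Δ than in wild type in every condition. After H2O2 the GSC2 share of mRNA reads was 25.9% and 37.0% in zuo1Δ, against 3.37% and 4.19% in wild type. The heated libraries gave 24.7% and 31.0% in zuo1Δ, against 20.6% and 19.5% in wild type. The unstressed libraries gave 19.9% and 24.3% in zuo1Δ, against 2.47% and 2.86% in wild type. The genotypes did not overlap in any condition of either assay. The library with the highest share, 37.0%, is the doubted mRNA library of the H2O2 group.

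**Figure D3:**
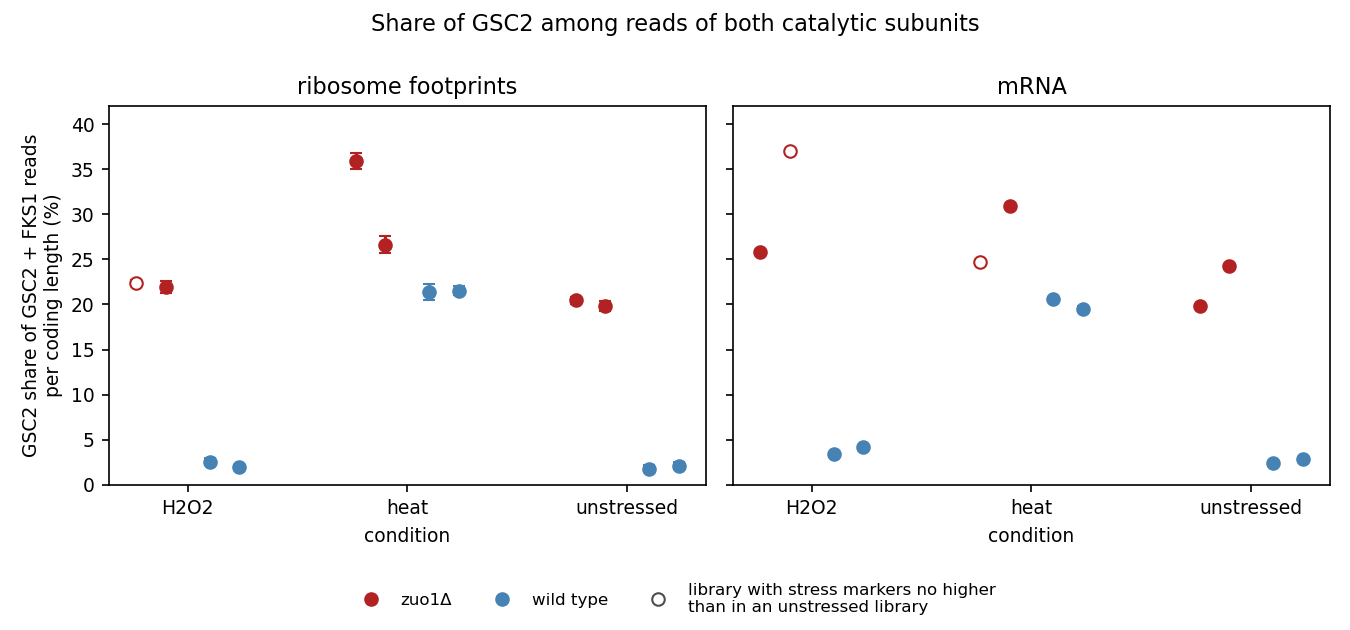
GSC2 share of GSC2 and FKS1 reads per coding length in each library, in percent, for footprints (left) and mRNA (right). Bars are 95% Clopper-Pearson intervals, often smaller than the points, and open points are the doubted libraries. Wild-type shares are between 1.75% and 4.19% outside heat and between 19.5% and 21.5% after heat, and zuo1Δ shares are at least 19.8% in every condition.

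Over the 8 stressed libraries of an assay, the log2 ratio of GSC2 to FKS1 averaged -1.48 in zuo1Δ and -3.65 in wild type in footprints, a difference of 2.17. In mRNA it averaged -1.26 in zuo1Δ and -3.34 in wild type, a difference of 2.07. With the genotype labels permuted within each stress, the exact two-sided permutation test gave p = 0.0556 in both assays, which is the smallest that the 36 arrangements can give. Without the doubted libraries the differences were 2.16 and 2.00.

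The summed footprints of both catalytic genes differed far less than GSC2 itself. They were at 582 ± 101 CPM per kilobase of coding length in zuo1Δ and 556 ± 13.3 in wild type after H2O2 (SD, n = 2). After heat they were at 670 ± 94.5 in zuo1Δ and 660 ± 46.6 in wild type, and without stress at 654 ± 3.47 in zuo1Δ and 630 ± 11.3 in wild type. The genotype means differed by less than the SD of the zuo1Δ replicates after either stress. Without stress they differed by more than either SD, with the zuo1Δ libraries (652 and 657) above the wild-type ones (638 and 622). The ratio of this sum to RHO1 footprints per coding length was 0.970 to 1.36 in zuo1Δ and 0.977 to 1.82 in wild type.

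In mRNA scaled by TMM, GSC2 was higher in zuo1Δ as in footprints, except after heat. After H2O2 it was at 576 and 1760 CPM in zuo1Δ, against 283 and 221 CPM in wild type. GSC2 mRNA was at 931 and 1186 CPM in heated zuo1Δ, against 2243 and 2004 CPM in heated wild type. Without stress it was at 1956 and 1008 CPM in zuo1Δ, against 374 and 354 CPM in wild type. The zuo1Δ libraries were higher than wild type after H2O2 and without stress and lower after heat, with no overlap, but the zuo1Δ replicates were up to about 3 times apart.

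None of these genotype differences in GSC2 mRNA passed the test. The difference was 2.21 ± 0.57 after H2O2 (edgeR, adjusted p = 0.0872), and 1.19 (adjusted p = 0.315) without the doubted library. It passed at 2.18 in DESeq2 (adjusted p = 0.00114), at 2.94 with library size alone (adjusted p = 0.0306) and at 2.26 with only the compared groups (adjusted p = 0.0182), and also with a replicate block. After heat it was -1.01 ± 0.55 (edgeR, adjusted p = 0.157), and -0.84 (adjusted p = 0.324) without the doubted library. In description it was 2.03 ± 0.57 without stress. Of all genes, 0.276% passed after H2O2, 37.3% after heat (0 genes without the doubted libraries) and 0.276% without stress.

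The direction after heat depends on how mRNA libraries are scaled to each other. With library size alone the GSC2 difference after heat was 0.53 (edgeR, adjusted p = 0.359), the opposite direction. That scaling moved the median difference of all genes by 0.74 after H2O2, 1.51 after heat and 1.51 without stress. The 50 most abundant genes held 19% to 61.7% of the reads of an mRNA library and 25.2% to 35.1% of a footprint library.

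GSC2 mRNA stood higher after heat than in unstressed cells in wild type. The value did not pass the main test of all 12 libraries and passed with a replicate block. Heat against unstressed cells gave -0.49 ± 0.55 in zuo1Δ (edgeR, adjusted p = 0.74; -0.32 without the doubted libraries, adjusted p = 0.845) and 2.55 ± 0.58 in wild type (adjusted p = 0.0571). In wild type the value passed in DESeq2 (2.55, adjusted p = 3.56e-05), with library size alone (3.02, adjusted p = 0.0172), with only the compared groups (2.54, adjusted p = 0.0192) and without wild type unstressed replicate 1 (2.59, adjusted p = 0.0491). The responses differed by -3.03 ± 0.79 (edgeR interaction, adjusted p = 0.252; -2.87 without the doubted libraries, adjusted p = 0.504; DESeq2, -3.04, adjusted p = 0.0116), and passed at -3.43 without zuo1Δ unstressed replicate 2 (adjusted p = 0.0242). Of all genes, 0% passed after heat in zuo1Δ (517 at an unadjusted p under 0.05, 66 in DESeq2), 0.69% in wild type and 0% in the interaction (891 unadjusted, 74 in DESeq2).

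Set against H2O2, a comparison also added after the values were seen, heat gave GSC2 mRNA -0.14 ± 0.55 in zuo1Δ (edgeR, adjusted p = 1) and 3.08 ± 0.59, or 8.43-fold, in wild type (adjusted p = 0.0364). Without the doubted libraries the zuo1Δ value was 1.04 (adjusted p = 1). The wild-type value no longer passed without wild type H2O2 replicate 1 (3.26, adjusted p = 0.161) or replicate 2 (2.91, adjusted p = 0.234), or without wild type heat replicate 1 (2.99, adjusted p = 0.209). The difference between the genotypes was -3.22 ± 0.79 (edgeR interaction, adjusted p = 0.386; -2.03 without the doubted libraries, adjusted p = 0.983; DESeq2, -3.22, adjusted p = 0.00287). Of all genes, 0% passed in zuo1Δ (17 unadjusted, 0 in DESeq2), 2.19% in wild type and 0% in the interaction (576 unadjusted, 11 in DESeq2).

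FKS1 mRNA was lower in zuo1Δ than in wild type in every condition by TMM scaling. By library size alone that held with no overlap after H2O2 only (-0.71), while after heat the difference was -0.13, with both zuo1Δ libraries (4434 and 5095 CPM) inside the wild-type range (3646 to 6775 CPM). After H2O2 it was at 1635 and 2963 CPM in zuo1Δ, against 8018 and 5010 CPM in wild type. After heat it was at 2814 and 2620 CPM in zuo1Δ, against 8561 and 8204 CPM in wild type. Without stress it was at 7805 and 3110 CPM in zuo1Δ, against 14646 and 11882 CPM in wild type. By TMM scaling the genotypes did not overlap in any condition.

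The FKS1 mRNA differences were -1.50 ± 0.62 after H2O2 (edgeR, adjusted p = 0.147; -1.99 without the doubted library, adjusted p = 0.312) and -1.63 ± 0.62 after heat (edgeR, adjusted p = 0.0541; -1.68 without the doubted library, adjusted p = 0.178). In DESeq2 both passed, at -1.53 (adjusted p = 0.0192) and -1.66 (adjusted p = 0.00216), and with a replicate block the difference after heat passed. In description the difference was -1.28 ± 0.62 without stress, and 0.13 with library size alone. By library size alone the means without stress were 6378 CPM in zuo1Δ and 5819 CPM in wild type. H2O2 against unstressed cells gave -1.25 ± 0.62 in zuo1Δ (edgeR, adjusted p = 0.541) and -1.03 ± 0.61 in wild type (adjusted p = 0.338), and heat gave -1.01 ± 0.61 in zuo1Δ (adjusted p = 0.573) and -0.66 ± 0.61 in wild type (adjusted p = 0.5). The zuo1Δ values without the doubted libraries were -1.74 with H2O2 (edgeR, adjusted p = 0.626) and -1.06 with heat (adjusted p = 0.635).

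RHO1 mRNA ran from 127 to 402 CPM over 12 libraries by TMM scaling, and from 54.1 to 484 CPM by library size alone. After H2O2 it was at 232 and 291 CPM in zuo1Δ, against 222 and 227 CPM in wild type. After heat it was at 269 and 228 CPM in zuo1Δ, against 127 and 211 CPM in wild type. Without stress it was at 292 and 318 CPM in zuo1Δ, against 255 and 402 CPM in wild type. Its genotype differences were 0.22 ± 0.39 after H2O2 (edgeR, adjusted p = 0.721) and 0.56 ± 0.39 after heat (adjusted p = 0.264), and neither passed. With library size alone the value after heat was 1.93 and passed (edgeR, adjusted p = 0.00869). The differences without the doubted libraries were 0.047 after H2O2 (edgeR, adjusted p = 0.966) and 0.43 after heat (adjusted p = 0.537). In description the difference was -0.11 ± 0.39 without stress. After heat RHO1 mRNA was higher in both zuo1Δ replicates than in both wild-type ones, as in footprints.

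Neither the H2O2 response of any of the 3 genes in mRNA nor its difference between genotypes passed. For GSC2 it was -0.34 ± 0.55 in zuo1Δ (edgeR, adjusted p = 0.85) and -0.53 ± 0.55 in wild type (adjusted p = 0.599), with a difference of 0.19 ± 0.77 (adjusted p = 0.98). Without the doubted library the zuo1Δ value was -1.36 (edgeR, adjusted p = 0.626) and the difference -0.83 (adjusted p = 0.996). Of all genes 0.0394% passed in zuo1Δ, 2.66% in wild type and 0% in the interaction (325 unadjusted, 4 in DESeq2). The heat response of RHO1 mRNA was -0.30 ± 0.39 in zuo1Δ (edgeR, adjusted p = 0.779; -0.43 without the doubted library, adjusted p = 0.75) and -0.96 ± 0.40 in wild type (adjusted p = 0.152).

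Translational efficiency was taken as the footprint difference less the mRNA difference in one fit of all 24 libraries. For GSC2 the efficiency in zuo1Δ relative to wild type was 1.51 ± 0.56 after heat, or 2.84-fold, and passed (edgeR, adjusted p = 0.0492). In this comparison 29.1% of all genes passed, and GSC2 lost the call with library size alone (0.16, adjusted p = 0.814), without the doubted libraries (1.42, adjusted p = 0.0535), and whichever library of the compared groups was left out (1.32 to 1.72). FKS1 stood at 1.42 ± 0.57 (edgeR, adjusted p = 0.0639) and RHO1 at -0.11 ± 0.39 (adjusted p = 0.85), and without the doubted libraries at 1.55 (adjusted p = 0.0921) and 0.10 (adjusted p = 0.886). The values of GSC2 and FKS1 were thus close to each other, in the same comparison.

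After H2O2 the efficiency differences were 1.04 ± 0.56 for GSC2 (edgeR, adjusted p = 0.376), 1.15 ± 0.56 for FKS1 (adjusted p = 0.358) and -0.14 ± 0.39 for RHO1 (adjusted p = 0.867). With the doubted libraries left out they were 1.96 for GSC2 (edgeR, adjusted p = 0.437), 1.57 for FKS1 (adjusted p = 0.437) and -0.085 for RHO1 (adjusted p = 0.947). Of all genes 0% passed, with 710 at an unadjusted p under 0.05 and 43 in DESeq2. In description, the unstressed values were 1.25 ± 0.56 for GSC2, 0.88 ± 0.56 for FKS1 and -0.29 ± 0.39 for RHO1, with 0.0394% of genes passing.

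The other genes of the pathway were taken as 7 lists of 69 genes, of which 66 were measured and tested. In footprints after H2O2, 6 of 66 rose and 4 fell in zuo1Δ (15.2%, against 19% of all genes), and after heat 7 rose and 1 fell (12.1%, against 6.48%). Without the doubted library 4 rose and 1 fell after H2O2 (8.2% of all genes then passed), and only 4 of the 10 genes above were among them. The calls of CHS2, CMP2, CRH1, GAS5, KRE5 and RDI1 after H2O2 were lost there. The calls after heat were kept, but neither heat group holds a doubted footprint library, so this is no check of them. The median difference of the 66 was 0.02 after H2O2 and 0.16 after heat, beside 0.00 and 0.01 over all genes. Without stress 2 rose and 1 fell (4.55%, against 4.82% of all genes), with a median of 0.17 beside 0.03. GSC2 had the largest rise of all 5064 genes after H2O2, so no listed gene could reach its value.

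Among the surface sensors that report wall stress to Rho1, 0 of 5 passed after H2O2 (19% of all genes) and 1 rose after heat (6.48% of all genes). It was WSC1, listed as SLG1 (0.64 ± 0.16; edgeR, adjusted p = 0.0339). Among the regulators of Rho1's GTP state, 1 of 7 measured passed after H2O2 and 0 after heat, beside the same shares of all genes. That one was RDI1, an inhibitor of small GTPases, which fell (-0.54 ± 0.16; edgeR, adjusted p = 0.0331).

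In the Pkc1 cascade, 0 of 8 genes passed after H2O2 (19% of all genes) and 1 rose in zuo1Δ after heat (6.48% of all genes). This was SLT2, the MAP kinase at the end of the cascade (1.01 ± 0.17, 2.02-fold; edgeR, adjusted p = 0.00665). Of 10 genes of calcineurin, Crz1 and known Crz1 targets, 2 rose and 1 fell after H2O2 (30%, against 19% of all genes). The sodium-phosphate transporter PHO89 (2.25 ± 0.26; edgeR, adjusted p = 0.000551) and the sodium pump ENA1 (1.77 ± 0.31, adjusted p = 0.00482) rose, and CMP2, a catalytic subunit of calcineurin, fell (-0.55 ± 0.16, adjusted p = 0.0323). After heat 2 of the 10 rose (20%, against 6.48% of all genes). They were PHO89 (1.21 ± 0.26; edgeR, adjusted p = 0.0164) and the calcineurin regulator RCN1 (1.19 ± 0.29, adjusted p = 0.0339). ENA1 has near-identical neighbours in many strains, so its counts are uncertain. Without stress 1 of the 10 rose in zuo1Δ footprints (10%, against 4.82% of all genes). The median of this list was 0.79 there, -0.02 after H2O2 and 0.13 after heat, beside 0.03, -0.003 and 0.01 over all genes.

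Of 22 measured genes of glucan remodelling and beta-1,6-glucan, 2 rose and 2 fell in zuo1Δ after H2O2 (18.2%, near the 19% of all genes). After heat 2 rose (9.09%, against 6.48% of all genes). SCW10, a glucanase-like wall protein, rose in both (0.93 ± 0.18; edgeR, adjusted p = 0.00626, after H2O2, and 0.92 ± 0.18, adjusted p = 0.011, after heat). KRE5 (-0.61 ± 0.15; edgeR, adjusted p = 0.0194), needed for beta-1,6-glucan, and GAS5 (-0.45 ± 0.14, adjusted p = 0.0382), a glucan-elongating enzyme, fell after H2O2, and SKN1, a beta-1,6-glucan gene, rose after heat (1.07 ± 0.19; edgeR, adjusted p = 0.00814). Of 7 chitin synthesis genes, 1 passed after each stress (14.3%, against 19% of all genes after H2O2 and 6.48% after heat). CHS2, the septum chitin synthase, rose after H2O2 (0.81 ± 0.18; edgeR, adjusted p = 0.0114). CHS6, which helps bring chitin synthase to the surface, fell after heat (-0.999 ± 0.257; edgeR, adjusted p = 0.038). FKS3, the third gene of the FKS family, averaged 2.43 CPM and did not pass in either stress.

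**Figure D4:**
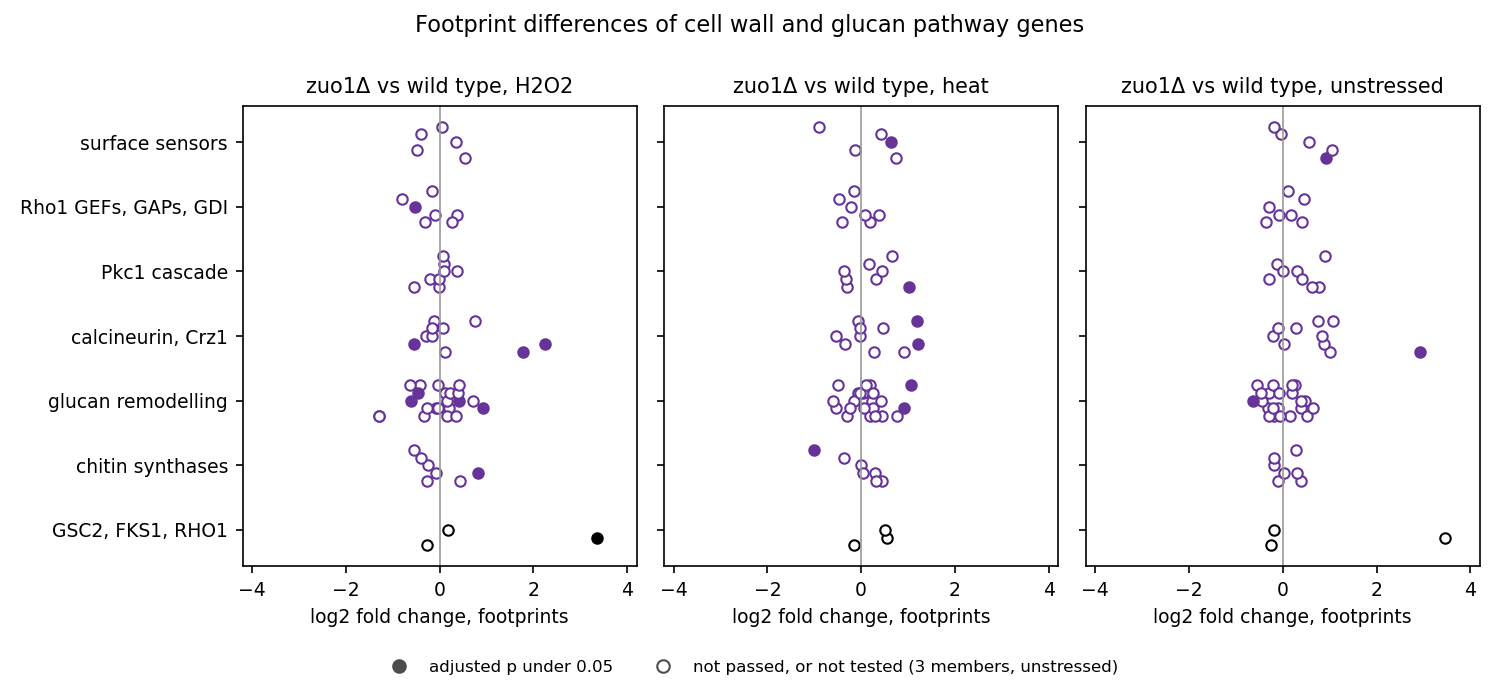
Footprint log2 fold change of zuo1Δ against wild type for each measured gene of 6 of the 7 pathway lists and for GSC2, FKS1 and RHO1, after H2O2, after heat and without stress. Each point is a gene and filled points passed at an adjusted p under 0.05. After H2O2 GSC2 lies at 3.35, the largest rise of all 5064 genes tested, and the next point is PHO89 (2.25).

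With heat, the footprints of several wall genes moved in both genotypes beside GSC2. Against unstressed cells, 9 of the 66 rose and 7 fell in zuo1Δ (24.2%, against 11.9% of all genes), and 7 rose and 1 fell in wild type (12.1%, near the 9.81% of all genes). CRH1, which links chitin to glucan, rose in zuo1Δ (0.86 ± 0.13; edgeR, adjusted p = 0.00334) and in wild type (1.13 ± 0.14, adjusted p = 0.000746). Its relative UTR2 fell in zuo1Δ (-1.06 ± 0.17; edgeR, adjusted p = 0.00389) and in wild type (-1.03 ± 0.17, adjusted p = 0.00312). RLM1, the transcription factor under Slt2, rose in zuo1Δ (1.10 ± 0.27; edgeR, adjusted p = 0.0233) and in wild type (1.34 ± 0.32, adjusted p = 0.0213). SLT2 rose as well, by 1.09 ± 0.17 in zuo1Δ (edgeR, adjusted p = 0.00334) and 0.71 ± 0.18 in wild type (adjusted p = 0.0316). Of the 8 genes of the Pkc1 cascade, 2 rose and 1 fell in zuo1Δ (37.5%, against 11.9% of all genes). In wild type 3 of them rose (37.5%, against 9.81%).

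Among the sensors, MID2 rose with heat in zuo1Δ (0.69 ± 0.20; edgeR, adjusted p = 0.0464) and in wild type (0.85 ± 0.23, adjusted p = 0.0347). In the Crz1 target list 3 of 10 fell in zuo1Δ (11.9% of all genes passed in either direction) and 0 of 10 passed in wild type (9.81%). Those 3 were the calcium pump PMC1 (-1.06 ± 0.22; edgeR, adjusted p = 0.0134), ENA1 (-0.99 ± 0.29, adjusted p = 0.0455) and the Golgi calcium pump PMR1 (-0.62 ± 0.15, adjusted p = 0.0234). Their responses did not pass the test of a difference between the genotypes (edgeR interaction, adjusted p = 0.237 for PMC1, 0.113 for ENA1 and 0.516 for PMR1).

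In mRNA 0 of the 66 passed between the genotypes after H2O2, where 0.276% of all genes did. After heat 12 were higher and 16 lower in zuo1Δ (42.4%, against 37.3% of all genes). Without the doubted libraries 0 of these 28 mRNA calls held. The efficiency calls after heat were 16 higher and 13 lower (43.9%, against 29.1%). Part of them was lost without the doubted libraries, and the listed share then stood nearer to that of all genes. These calls rest on mRNA, whose scaling moves the median of all genes after heat as given above, so no direction of a single mRNA is drawn from them.

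As a description across the 12 footprint libraries, the genes most like GSC2 in log2 CPM were NCW2 (Pearson r = 0.935), a cell wall protein gene, TRM112 (0.927), YPS3 (0.920), an aspartyl protease gene of the cell surface, DEP1 (0.918) and RAD9 (0.913), among 4619 genes. In mRNA the same pairs had r = 0.877, 0.609, 0.515, 0.223 and 0.170. For FKS1 the nearest were TIR1, a mannoprotein gene, and HEM13, a gene of haem synthesis, at 0.866 and 0.851 in footprints and 0.960 and 0.961 in mRNA. SCP160, POS5 and SAN1 followed at 0.851, 0.849 and 0.846 in footprints, and had 0.336, 0.104 and 0.276 in mRNA. For RHO1 the nearest were QCR6 (0.888), PFD1 (0.874), COX6 (0.851), TRP1 (0.826) and RPS22B (0.825). In mRNA these pairs with RHO1 had r = 0.092, 0.239, 0.547, -0.376 and 0.121. The points share libraries and 6 groups, so these values describe likeness over these conditions alone.

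Between the 3 genes themselves, footprint levels gave r = -0.607 for GSC2 with FKS1, -0.021 for GSC2 with RHO1 and 0.038 for FKS1 with RHO1 over the same 12 libraries. In mRNA these were -0.175, -0.273 and -0.042.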

How the data were processed

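The authors deposited one table of raw read counts per gene for 24 libraries. Per the submitters' processing notes, cutadapt, Bowtie2, HISAT2, SAMtools and the build R64 were used, with no versions or roles. What counted the reads, with which strand setting, and what was done with reads that match both FKS1 and GSC2 is not given in the sources used here. Of 5211 genes, 5198 matched the RefSeq gene table that gave symbols and coordinates, and 3 emptied lines were left out. Comparisons used the 5070 genes detected in both genotypes; 87 were at 0 throughout wild type and 54 throughout zuo1Δ.

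The main test was the quasi-likelihood test of edgeR 4.0.16, with limma 3.58.1 under R 4.3.3, on all 12 libraries of an assay, or all 24 for efficiency, with TMM factors and filterByExpr (minimum count 10, minimum total 15). P-values were Benjamini-Hochberg adjusted over all genes tested, with a threshold of 0.05. Standard errors are the size of the log2 fold change divided by the root of its F statistic. GSC2 to FKS1 ratios were compared by an exact permutation test. Named list genes are up to 3 per list and comparison, those that passed with the largest change at a mean of at least 10 CPM. One of the 7 lists enters the counts over all listed genes but is not reported here on its own. Genes of likeness are the 5 with the highest Pearson r of log2 CPM (prior count 2). The members, lists and rules were chosen with earlier results of these data known, and the comparison of heat with H2O2 was added after the values were seen.

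Alternatives were DESeq2 1.42.0, scaling by RLE factors or by library size alone, a fit without the filter, a fit with the compared groups only, a replicate block, raw instead of per-length shares, each library left out, and the 3 doubted libraries left out. The fit was tested on simulated counts. The common biological coefficient of variation was 0.169 in footprints and 0.318 in mRNA. The labels name no molecular identifiers, so intervals cover counting error only. Replicates are labelled biological, but whether they came from separate cultures is not stated, so p-values measure the spread between these samples.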

Additional observations from a re-analysis of the deposited data

Results flagged for a closer look

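The GSC2 footprint response to heat relative to H2O2 differed between the genotypes, by -2.80 ± 0.25 on the log2 scale (edgeR interaction, adjusted p = 0.000385). It was 0.68 in zuo1Δ and 3.48 in wild type, and every replicate after heat was higher than every replicate after H2O2 in both. The comparison was added after the values were seen.

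RHO1 footprint levels after heat were, by TMM scaling, above the unstressed libraries in both zuo1Δ replicates (392 and 401 CPM, against 361 and 305 CPM unstressed) and below them in both wild-type replicates (321 and 240 CPM, against 404 and 358 CPM unstressed). Neither response passed (0.25 in zuo1Δ, edgeR adjusted p = 0.429, and -0.45 in wild type, adjusted p = 0.181). By library size alone the wild-type libraries overlapped (315 and 247 CPM after heat, against 340 and 302 CPM unstressed). The difference between the responses was 0.70 ± 0.28 and did not pass (edgeR interaction, adjusted p = 0.265). In mRNA it was 0.66 ± 0.56 (edgeR interaction, adjusted p = 0.498).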

How the results depend on the processing

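The rise of GSC2 footprints in zuo1Δ after H2O2 (3.15 to 3.54), the heat against H2O2 response in wild type and its difference between the genotypes kept their direction and their call under every alternative run. The log2 ratio of GSC2 to FKS1 kept its direction (2.01 to 2.32 in footprints and 1.89 to 2.26 in mRNA with each library left out). The lowest GSC2 footprint count of any library, 90 reads in unstressed wild type, limits the precision of that level. GSC2 was chosen with earlier results known, so the calls it kept lend no independent support. Causes of the changes below were not tested. Where a library left out leaves 1 in its group, it is assumed to vary like the other groups.

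With DESeq2, calls were gained for GSC2 footprints after heat (0.54), GSC2 mRNA after H2O2 (2.18), with wild-type heat (2.55) and in the heat (-3.04) and heat against H2O2 (-3.22) interactions, and for FKS1 after H2O2 (-1.53) and heat (-1.66) in mRNA and after heat in efficiency (1.52). The FKS1 footprint H2O2 interaction turned to 0.004 with DESeq2 and RLE factors and to 0.005 with only the groups compared, and the FKS1 unstressed footprint difference moved to -0.281 with DESeq2, RLE factors or without the doubted libraries.

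With only the groups compared, GSC2 mRNA passed after H2O2 (2.26) and with wild-type heat (2.54), FKS1 efficiency passed after heat (1.45), and the GSC2 footprint response of zuo1Δ to heat against H2O2 (0.67) lost its call.

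With library size alone, GSC2 passed in footprints after heat (0.69), in mRNA after H2O2 (2.94) and with wild-type heat (3.02), RHO1 mRNA passed after heat (1.93), and GSC2 efficiency after heat lost its call (0.16). GSC2 mRNA turned in direction after heat (0.53), in the H2O2 interaction (-0.52) and in the responses to H2O2 (0.14 in zuo1Δ, 0.66 in wild type) and of zuo1Δ to heat (0.091). RHO1 mRNA turned in the H2O2 interaction (-0.44), in the H2O2 responses (0.20 in zuo1Δ, 0.64 in wild type) and in the zuo1Δ heat response (0.14). FKS1 turned in wild-type footprints with H2O2 (0.028) and heat (0.004), in the footprint heat interaction (-0.012), and in mRNA with wild-type H2O2 (0.14), wild-type heat against H2O2 (-0.29) and its interaction (0.58). Described values moved to 3.69 (GSC2 unstressed footprints), 0.81 (zuo1Δ heat) and 3.81 (wild-type heat), and in unstressed cells to -0.002 (FKS1 footprints), 0.045 (RHO1 footprints), 3.46, 0.13 and 1.39 (GSC2, FKS1 and RHO1 mRNA) and 0.23, -0.13 and -1.34 (their efficiency).

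Without the doubted libraries, GSC2 footprints after heat passed (0.53), though neither heat group of footprints holds a doubted library. GSC2 efficiency after heat did not pass there (1.42). RHO1 turned in footprints after H2O2 (-0.028) and in the zuo1Δ H2O2 response (-0.074) and in efficiency after heat (0.10). In mRNA GSC2 turned in the H2O2 interaction (-0.83) and in the zuo1Δ heat against H2O2 response (1.04), and FKS1 in the heat against H2O2 interaction (0.32).

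The replicate numbers are not said to mark a shared culture. Deviations of same-numbered replicates correlated from -0.328 to 0.783 between groups. Among the mRNA groups of wild type and unstressed zuo1Δ the values were 0.209 to 0.783. All negative mRNA values involved the zuo1Δ H2O2 group, which holds a doubted library. Footprint groups without a doubted library also had values near 0, such as -0.042 for heated wild type with heated zuo1Δ. The numbers were thus not taken to pair all samples. With a replicate block, calls were gained for GSC2 mRNA after H2O2 (2.20, adjusted p = 0.0278) and with wild-type heat (2.55, adjusted p = 0.032), for FKS1 mRNA after heat (-1.63, adjusted p = 0.0311) and for RHO1 footprints after heat (0.52, adjusted p = 0.047), in edgeR. The block moved counts of calls to 633 after H2O2 and 472 without stress in mRNA between genotypes (14 each without it), and changed no other call of the 3 genes.

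With each library left out in turn, GSC2 values ran from 3.32 to 3.52 (unstressed footprints), 0.57 to 0.71 (zuo1Δ heat footprints), 3.41 to 3.62 (wild-type heat footprints), -0.30 to 0.13 and -2.98 to -2.77 (H2O2 and heat interactions in footprints) and 0.50 to 0.85 (zuo1Δ heat against H2O2 footprints). In mRNA they ran from 1.48 to 2.43 (unstressed), -1.36 to 0.25 and -0.89 to 0.072 (zuo1Δ H2O2 and heat), 2.46 to 2.62 (wild-type heat), -0.83 to 0.78 and -3.43 to -2.44 (H2O2 and heat interactions), and 2.91 to 3.26 and -0.73 to 0.88 (heat against H2O2, wild type and zuo1Δ). Efficiency ran from 0.86 to 1.79 (unstressed) and 1.32 to 1.72 (heat).

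FKS1 footprints ran from -0.299 to -0.231 (unstressed), -0.43 to 0.057 (genotypes after heat), -0.44 to 0.045 (zuo1Δ heat), -0.14 to 0.19 and -0.15 to 0.33 (H2O2 and heat interactions), -0.14 to 0.002 and -0.22 to 0.26 (heat against H2O2, wild type and zuo1Δ) and -0.17 to 0.31 (its interaction). FKS1 mRNA ran from -2.08 to -0.77 (unstressed), -0.74 to 0.57 and -0.86 to 0.49 (H2O2 and heat interactions), -0.12 to 0.73 (zuo1Δ heat against H2O2) and -0.50 to 0.37 (its interaction), and unstressed efficiency from 0.36 to 1.67. RHO1 ran in footprints from -0.028 to 0.39 (genotypes after H2O2), -0.074 to 0.31 (zuo1Δ H2O2) and -0.068 to 0.32 (zuo1Δ heat against H2O2), in mRNA from -0.40 to 0.26 (unstressed), -0.042 to 0.61 (H2O2 interaction) and -0.23 to 0.097 (zuo1Δ heat against H2O2), and in efficiency from -0.38 to 0.063 after H2O2 and -0.47 to 0.23 after heat.

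Counts of genes that passed ranged over all alternatives, between genotypes in footprints, from 157 to 1178 after H2O2 (963 as reported), 72 to 476 after heat (328) and 71 to 488 unstressed (244). In mRNA they ranged from 0 to 941 (14), 0 to 3121 (1892) and 0 to 3022 (14), and in efficiency from 0 to 43 (0), 407 to 2515 (1474) and 0 to 826 (2), in that order of conditions. For H2O2 responses they ranged in footprints from 0 to 184 in zuo1Δ (0) and 233 to 1209 in wild type (919), and in mRNA from 0 to 87 (2) and 0 to 1581 (135). For heat responses they ranged in footprints from 142 to 785 in zuo1Δ (601) and 133 to 819 in wild type (497), and in mRNA from 0 to 66 (0) and 0 to 663 (35). The interactions ranged from 0 to 466 for H2O2 (69) and 2 to 155 for heat (52) in footprints and from 0 to 4 (0) and 0 to 477 (0) in mRNA. Heat against H2O2 ranged in footprints from 4 to 340 in zuo1Δ (212), 47 to 1402 in wild type (738) and 1 to 228 in the interaction (20), and in mRNA from 0 to 1 (0), 0 to 838 (111) and 0 to 11 (0).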
